A study of Rattus norvegicus with 93 samples.

Results

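The mammalian circadian clock is a feedback loop of transcription that runs in most cells of the body, and 10 of its genes, Per1, Per2, Per3, Dbp, Nr1d1, Nr1d2, Ciart, Clock, Cry1 and Tef, were followed here in the rat rostromedial tegmental nucleus (RMTg). They were chosen by gene symbol, and they are 10 of the 38354 genes in the deposited table. The RMTg is a brainstem nucleus of GABA neurons that inhibit dopamine cells of the midbrain, and the study gathered it for statistical genetics of how addiction relates to learned avoidance. All samples belong to 1 group, polyA RNA of this tissue from outbred laboratory rats. The labels used here give no age, treatment, behaviour, strain beyond outbred, or time of day at collection, nor how the tissue was taken. Of 93 labelled samples 92 had a column, and 49 of these were used: libraries in which the gene Nif3l1 took under 20% of the counts and LOC120093067 with Zfp532 took under 10%. The 49 fall into 5 series by gaps of over 50000 between sample identifiers, B with 7 libraries, C with 16, D with 12, E with 7 and F with 7. No source used here says what the series are. Each library is a sample of its own, and p-values measure the spread between these libraries.

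In the clock loop the partners CLOCK and BMAL1, or NPAS2 in place of CLOCK, bind E-boxes in DNA and switch on the Per, Cry, Nr1d, Ciart and Dbp genes. PER and CRY proteins then inhibit that activator, while NR1D1 and NR1D2 (REV-ERB alpha and beta) repress Bmal1, Npas2, Clock and Cry1 through ROR elements. DBP and TEF are PAR bZIP factors that pass the rhythm on to genes with D-boxes, and Per1 is also a gene that neuronal activity and glucocorticoids induce within a short time. Outside the suprachiasmatic nucleus, the master clock, brain regions are known to hold local clocks of the same parts.

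Stretches of promoter sequence are shown for matches to the letters of elements that are known to tie clock genes to each other. Whether these matches are in use was not tested. The stretches are the 250 bases before the transcript start in RefSeq on build GRCr8, on the coding strand, with matched elements in capitals. The table has an entry for 9 of the 10 genes, and none for Cry1. That start lies inside the annotated gene for Ciart, Per1, Per2, Per3, Tef, Bmal1, both Clock entries and the Nr1d1 entry printed second, and at the end of the gene for Dbp, Nr1d2 and the first Nr1d1 entry. The windows are chr2:186112247-186112496 for Ciart, chr10:84231813-84232062 and chr10:84229455-84229704 for Nr1d1, chr9:99496994-99497243 for Per2, chr7:115206577-115206826 for Tef and chr1:176766078-176766327 for Bmal1, the activator gene outside the set. Those of Ciart, Nr1d1 and Per2 are on the minus strand and those of Tef and Bmal1 on the plus strand.
Ciart: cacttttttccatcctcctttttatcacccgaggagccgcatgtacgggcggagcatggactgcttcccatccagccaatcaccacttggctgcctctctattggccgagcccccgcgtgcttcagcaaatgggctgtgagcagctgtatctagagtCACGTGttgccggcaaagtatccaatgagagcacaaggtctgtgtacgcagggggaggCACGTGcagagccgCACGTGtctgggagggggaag
Nr1d1 entry 1: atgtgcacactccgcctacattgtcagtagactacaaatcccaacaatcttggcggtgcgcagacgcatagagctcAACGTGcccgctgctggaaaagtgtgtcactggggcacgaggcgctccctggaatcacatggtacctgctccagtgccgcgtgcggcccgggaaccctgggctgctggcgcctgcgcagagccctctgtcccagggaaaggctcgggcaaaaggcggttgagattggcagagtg
Nr1d1 entry 2: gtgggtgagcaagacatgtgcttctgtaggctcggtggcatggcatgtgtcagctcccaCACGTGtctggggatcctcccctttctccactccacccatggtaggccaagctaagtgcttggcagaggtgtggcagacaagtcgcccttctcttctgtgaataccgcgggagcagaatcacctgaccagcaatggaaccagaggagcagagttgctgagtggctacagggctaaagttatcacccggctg
Per2: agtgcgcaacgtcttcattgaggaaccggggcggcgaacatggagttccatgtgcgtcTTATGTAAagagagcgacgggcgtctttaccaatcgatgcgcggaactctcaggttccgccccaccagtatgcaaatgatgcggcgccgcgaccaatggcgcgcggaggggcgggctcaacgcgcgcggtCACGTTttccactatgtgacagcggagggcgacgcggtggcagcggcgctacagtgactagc
Tef: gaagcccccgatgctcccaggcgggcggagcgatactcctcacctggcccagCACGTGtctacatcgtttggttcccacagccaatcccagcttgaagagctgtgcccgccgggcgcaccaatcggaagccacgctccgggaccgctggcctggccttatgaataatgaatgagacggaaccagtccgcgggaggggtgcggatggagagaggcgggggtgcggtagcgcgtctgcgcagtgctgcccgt
Bmal1: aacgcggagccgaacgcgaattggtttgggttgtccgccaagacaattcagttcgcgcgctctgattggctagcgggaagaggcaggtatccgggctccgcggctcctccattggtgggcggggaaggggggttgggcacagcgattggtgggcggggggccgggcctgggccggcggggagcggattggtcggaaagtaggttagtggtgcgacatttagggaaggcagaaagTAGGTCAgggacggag
Both strands were searched for the E-box CACGTG, its variant CACGTT, the D-boxes TTATGTAA and TTACGTAA, the cyclic AMP response element TGACGTCA and the ROR element TAGGTCA, and no match overlapped another. Ciart, which encodes a repressor of the CLOCK and BMAL1 pair, held 3 E-boxes, beginning 93, 35 and 21 bases before the start. Tef held 1 at 198 bases and the second Nr1d1 entry 1 at 191 bases. The variant CACGTT was in the first Nr1d1 entry at 174 bases and in Per2 at 62 bases (in Nr1d1 it reads on the other strand, as AACGTG). Per2 also held a D-box at 192 bases, and Bmal1 held a ROR element at 16 bases. Cry2 and Npas2, also outside the set, were searched too, and their windows are not printed. Cry2 held the variant at 212 bases, on the other strand, and Npas2 held none of the elements. Of 33469 promoter windows of this length in the table, 5.59% held an E-box, 4.07% the variant, 0.932% a D-box, 1.59% the cyclic AMP element and 2.26% the ROR element. No element searched was in the windows of Dbp, Per1, Per3, Nr1d2 or Clock, which says only that these letters are not in these 250 bases.

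Depth in the 49 libraries was 9.55 to 50.2 M estimated counts (M, 1000000 counts; median 19.2 M), with 23690 to 28273 genes above 0, and 0 pairs of libraries held identical values. All 10 clock genes passed the filter on low values, among 18749 genes tested, and none was at 0 in any library. Values are counts per 1000000 (CPM) and tests use log2(CPM + 1). Counts were not adjusted for transcript length, so levels of different genes are not compared. Of 7 markers of RMTg inhibitory neurons all were detected, with a summed level of 642 to 1109 CPM; the 5 oligodendrocyte markers summed to 31729 to 76155 CPM, 4 dopaminergic markers to 193 to 1951 CPM and 3 serotonergic markers to 132 to 483 CPM. Markers of the suprachiasmatic nucleus (5 genes) summed to 12.6 to 31.7 CPM and those of the pineal gland (4 genes) to 1.17 to 21.3 CPM, with the pineal factor Crx at a median of 0. In bulk tissue, fewer cells of a type and less RNA per cell cannot be told apart.

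The period genes encode the PER proteins, which carry the inhibition of the loop. Per1 (chr10:54299002-54313804) ranged from 6.03 to 33.9 CPM with a median of 15.2, Per2 (chr9:99454828-99497069) from 12.2 to 36.9 with a median of 22.02, and Per3 (chr5:166740914-166778243) from 54.3 to 155 with a median of 98.5. The lowest Per1 value was in a library of series D and the highest in one of series F. Cry1 (chr7:20417526-20481791), the partner that blocks the activator, was steadier, at 8.63 to 20.6 CPM (median 14.3). Clock (chr14:32262747-32346872), the activator subunit, ranged from 25.8 to 50.7 CPM (median 36.3).

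Dbp (chr1:105312256-105317205), the D-box activator often used as a readout of clock output, ranged from 31.5 to 93.7 CPM with a median of 45.6. The nuclear receptor gene Nr1d1 (chr10:84224599-84231812) ranged from 6.20 to 22.9 CPM (median 11.96) and its paralogue Nr1d2 (chr15:9955034-9981329) from 26.7 to 103 CPM (median 64.6). Ciart (chr2:186108744-186113778) ranged from 4.96 to 25.2 CPM (median 10.5), and Tef (chr7:115197180-115221930) from 55.1 to 92.7 CPM (median 72.6). The same single library of series C (library 43 in accession order) was lowest for Dbp, Nr1d1 and Ciart, and one library of series E (library 86) was highest for Nr1d1 and Ciart. A library of series D (library 70) was highest for both Dbp and Per3. Spans are those of RefSeq on GRCr8; the deposited position equals 1 end of the span for each of the 10 genes, and the build is not stated.

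**Figure D1:**
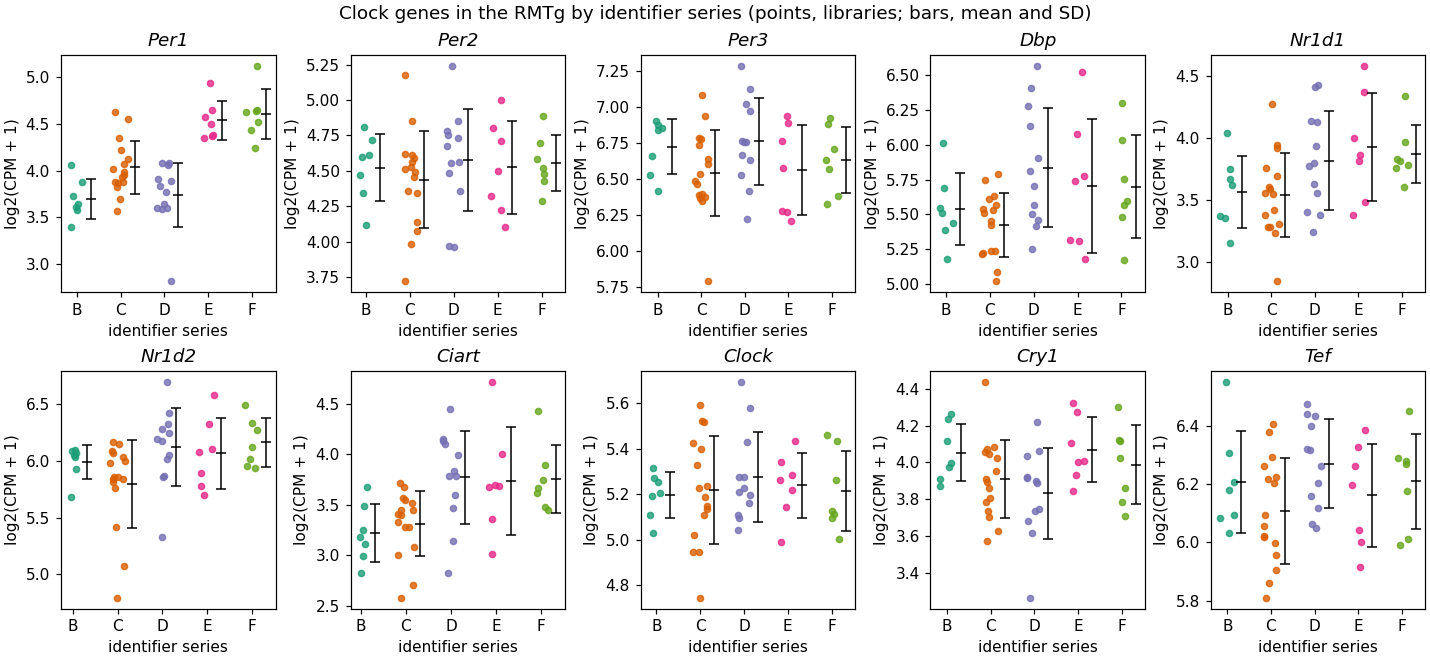
Level of each clock gene, log2(CPM + 1) on the vertical axis, by identifier series on the horizontal axis; points are the 49 libraries and bars the mean and SD of a series. Per1 sits higher in series E and F (means 4.54 and 4.61) than in B, C and D (3.70 to 4.03), while Clock has means of 5.20 to 5.27 in all 5.

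The genes differed in how much they varied between libraries. The SD of log2(CPM + 1) over the 49 libraries was 0.45 for Ciart, 0.44 for Per1, 0.37 for Dbp, 0.37 for Nr1d1 and 0.34 for Nr1d2, against a median of 0.29 over all 18749 genes. It was 0.31 for Per2, 0.28 for Per3, 0.22 for Cry1, 0.19 for Clock and 0.18 for Tef. With the dependence of SD on mean level fitted and removed, those SDs stood among all genes tested at the 93.6th percentile for Per1, the 93.03rd for Dbp, the 91.1st for Ciart and the 90.04th for Nr1d2. The steady genes Cry1, Clock and Tef were at the 15.7th, 14.3rd and 11.2nd percentile. With series means removed, Per1 dropped to the 59.2nd percentile whereas Dbp stayed at the 91.7th, so most of the spread of Per1 but not of Dbp lay between series. These percentiles describe the libraries and carry no test.

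Dbp moved together with Ciart, Nr1d1, Per3 and Tef from library to library, which the next values show within series. Every gene was fitted on the log2 level of Dbp with series as a covariate (limma, adjusted over 18748 genes), and a slope is in log2 units per log2 unit of Dbp. At an adjusted p under 0.05, 0.475% of genes passed (0.395% rising and 0.0800% falling with Dbp). Of the 9 other clock genes 4 rose and 0 fell. Ciart rose with Dbp by 0.83 ± 0.12 (SE, adjusted p = 2.53e-05), Nr1d1 by 0.68 ± 0.11 (adjusted p = 0.00143), Per3 by 0.50 ± 0.09 (adjusted p = 0.00984) and Tef by 0.29 ± 0.07 (adjusted p = 0.038). Each of the 4 had a positive correlation with Dbp in 5 of 5 series, and the lowest of these 20 values was 0.37, for Per3 in series C. Without series D (37 libraries) only Ciart of the 4 still passed, with 0.87 (adjusted p = 0.003), while Nr1d1 had 0.68 (adjusted p = 0.0845), Per3 0.47 (adjusted p = 0.169) and Tef 0.33 (adjusted p = 0.169). Tef also missed the threshold without series B (adjusted p = 0.134), C (adjusted p = 0.16) or F (adjusted p = 0.116).

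The other 5 clock genes did not pass on Dbp. The slope was 0.23 ± 0.12 for Per1 (adjusted p = 0.308), 0.20 ± 0.13 for Nr1d2 (adjusted p = 0.454), 0.11 ± 0.13 for Per2 (adjusted p = 0.719), -0.09 ± 0.09 for Cry1 (adjusted p = 0.659) and -0.21 ± 0.08 for Clock (adjusted p = 0.157). Clock, the activator, was negatively correlated with Dbp in 5 of 5 series all the same, with a within-series r of -0.39. Thra, which encodes a thyroid hormone receptor on the opposite strand, overlaps Nr1d1 by 1061 bases, and no source used here states whether counting used strand. Thra lay between 95.4 and 152 CPM, and its within-series r with Nr1d1 was 0.37.

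**Figure D2:**
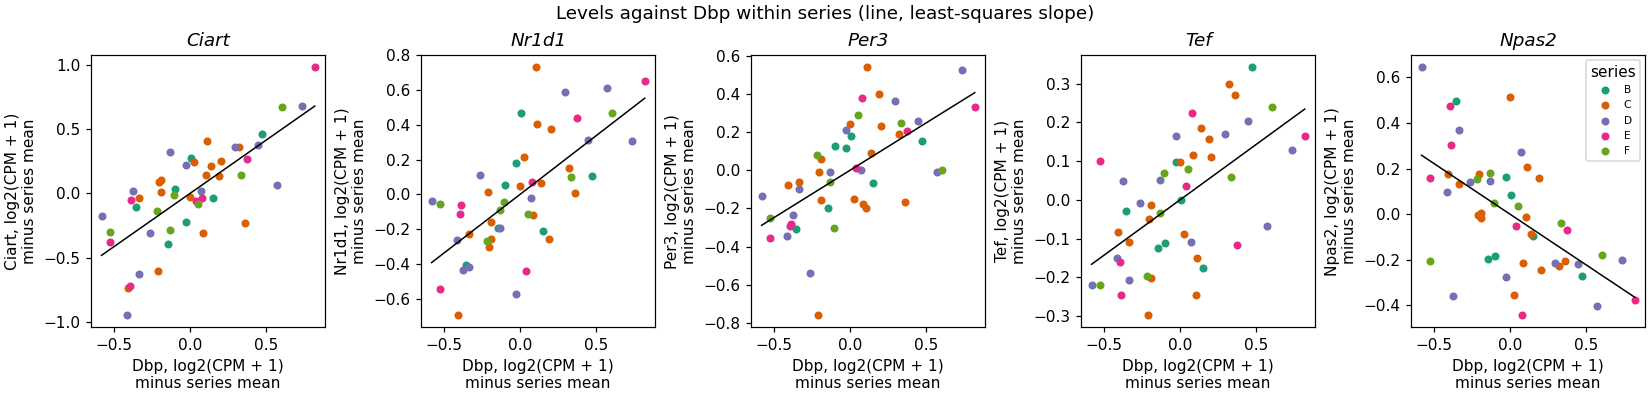
Level of Ciart, Nr1d1, Per3, Tef and the activator gene Npas2 (vertical axes) against Dbp (horizontal axes), each as log2(CPM + 1) minus the mean of its series; points are 49 libraries, colours are series and lines are least-squares slopes. The first 4 genes rise with Dbp, most steeply Ciart with a within-series r of 0.74, and Npas2 falls with an r of -0.58.

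Among the other core clock genes, a repressor gene rose with Dbp and an activator gene fell. Of 16 such genes 15 were tested, and Cry2, the second cryptochrome, rose with Dbp by 0.38 ± 0.08 (adjusted p = 0.021) while Npas2, the activator subunit that can replace CLOCK, fell by 0.45 ± 0.10 (adjusted p = 0.0353). Bmal1, the obligate partner of both, had a slope of -0.38 ± 0.11 (adjusted p = 0.0678) and was negatively correlated with Dbp in 5 of 5 series. It passed when libraries were scaled by median-of-ratios size factors (-0.44, adjusted p = 0.0363). Npas2 ranged from 8.90 to 23.3 CPM (median 14.5), Bmal1 from 9.82 to 24.5 (median 17.5) and Cry2 from 22.9 to 64.7 (median 37.3). Cry2 and Npas2 each missed the threshold without series B, C or D (adjusted p from 0.112 to 0.222), and Cry2 without series as a covariate (adjusted p = 0.0767). The median slope of the 15 genes was 0.02, as it was for all genes (0.02).

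Lists for other cell states and cell types gave no member that passed on Dbp. Of all 18748 genes 3296 had an unadjusted p under 0.05 on Dbp, the background for the counts below. Of 8 clock output genes 0 passed in limma, and 2 had an unadjusted p under 0.05: the cold-inducible RNA-binding genes Cirbp and Rbm3 had slopes of 0.31 (adjusted p = 0.11) and 0.30 (adjusted p = 0.123). Of 11 immediate early genes tested 0 passed and 0 had an unadjusted p under 0.05, with a median slope of 0.19, and the same held for 8 glucocorticoid targets, with a median of -0.22. Of the markers of 12 cell types, 0 passed in any list, and at most 2 in a list (astrocyte and neuron) had an unadjusted p under 0.05. Rgs16, a regulator of G protein signalling that is rhythmic in the suprachiasmatic nucleus, came nearest of that list, at 0.46 ± 0.14 (adjusted p = 0.077).

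Over all genes tested, 74 rose with Dbp and 15 fell. Outside the 10 clock genes, and with Cry2 and Npas2 of the core list among them, the 8 leading genes by within-series correlation that rose, in 5 of 5 series each, were Psen2 (r of 0.68), which encodes a presenilin, Hcn2 (0.62), a pacemaker cation channel, Fndc10 (0.62), Cry2 (0.61), Trir (0.61), Garin5a (0.60), Dgat2 (0.59), an enzyme of triglyceride synthesis, and Tmem234 (0.59). Hcn2 had the steepest slope of these, 0.74 ± 0.14 (adjusted p = 0.00687). The 6 leading genes that fell were Chordc1 (r of -0.60), a co-chaperone of HSP90, Npas2 (-0.58), Zfp677 (-0.56), Fcho2 (-0.56), Uba6 (-0.54) and Usp33 (-0.54). Chordc1 had a slope of -0.72 ± 0.14 (adjusted p = 0.00984). The likeness is over 49 libraries. The number of genes passing moved between 3 without series D and 337 without series E, and leaving out 1 library alone (library 48 of series C, whose label notes a corrected identifier) raised it from 89 to 152, so the names are those of this set of libraries.

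With each clock gene taken as the reference in turn, 7 of 45 pairs passed in both directions. They were Dbp with Ciart, Nr1d1, Per3 and Tef, Ciart with Nr1d1 and with Per3, and Per2 with Per3, and all 7 were positive in 5 of 5 series. The share of all genes that passed depended much on the reference: it was 13.4% for Nr1d2, 10.4% for Per3, 8.30% for Ciart, 7.32% for Nr1d1, 4.72% for Cry1, 1.93% for Clock, 1.58% for Per2, 1.21% for Per1 and 0.0747% for Tef. Against these shares, 4 of 9 clock genes passed on Per3, 4 on Ciart, 2 on Nr1d1, 1 on Nr1d2, 1 on Per2, 1 on Clock, 1 on Tef, 0 on Cry1 and 0 on Per1. Only 14 genes in all passed on Tef, and Dbp was one, with a slope of 1.21 ± 0.24 (adjusted p = 0.0331).

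Pooled correlations were computed for all 45 pairs over 49 libraries, with two-sided permutation tests (100000 permutations, p not adjusted). For Dbp with Ciart and with Nr1d1 the pooled r was near the within-series r (0.74 and 0.68). Some pairs with Per1 differed more: r was 0.14 pooled and -0.05 within series with Nr1d1, and 0.09 and 0.32 with Tef. The permutations ignored series, so differences between series enter these p-values. For Dbp with Ciart r was 0.78 (p = 1e-05, the smallest the permutations can give) and rho 0.74 (p = 1e-05). It was 0.70 (r) without the 2 libraries of most extreme Dbp level. Within series it was 0.69 in B, 0.51 in C, 0.72 in D, 0.91 in E and 0.91 in F. For Dbp with Nr1d1 r was 0.71 (p = 1e-05), rho 0.60 (p = 1e-05) and r 0.67 without the 2 libraries, and 0.40 to 0.83 within series. For Ciart with Per3 the within-series r was 0.66, and for Ciart with Nr1d1 it was 0.59.

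Per2 stood apart from Dbp and went with Per3. The slope of Per2 on Per3 was 0.54 ± 0.15 (adjusted p = 0.0208) and that of Per3 on Per2 0.42 ± 0.12 (adjusted p = 0.0474), with a pooled r of 0.49 (permutation p = 0.00033), a rho of 0.52 (permutation p = 0.00016) and an r of 0.43 without the 2 farthest libraries. Its within-series r was 0.12 in B, 0.52 in C, 0.55 in D, 0.25 in E and 0.82 in F. Per2 also rose with Nr1d2 as the reference (0.41 ± 0.13, adjusted p = 0.0354), but Nr1d2 on Per2 did not pass (adjusted p = 0.0864). In 34 of 45 pairs the within-series r was above 0, and the negative pairs involved Clock or Cry1 except Per1 with Nr1d1 and Per1 with Nr1d2. Whether the correlation of Dbp with one gene differs from that with another was not tested. Counted anew over all 45 pairs, 3 passed in both directions without series C and 1 without series D. Without the 2 most extreme libraries of each reference 3 did, and on ranks 2. These counts do not say which of the 7 pairs remained. The cause was not tested.

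**Figure D3:**
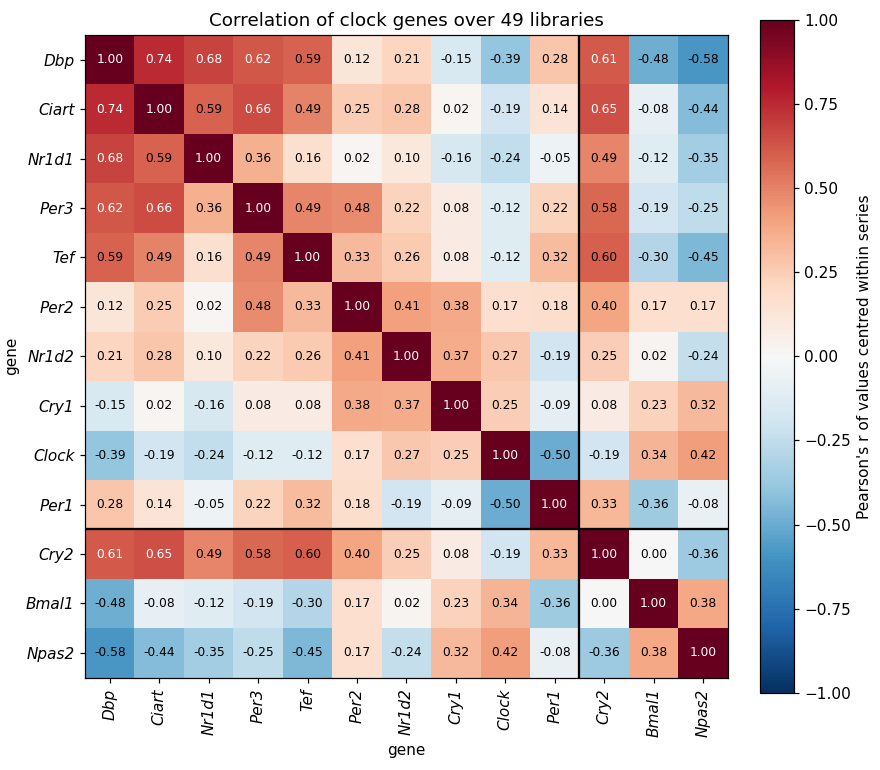
Pearson's r between clock genes over 49 libraries, computed on log2(CPM + 1) with series means removed, coloured from -1 (blue) to 1 (red); the 3 genes after the black lines (Cry2, Bmal1, Npas2) are outside the set of 10. Among Dbp, Ciart, Nr1d1, Per3 and Tef all values are above 0, with 0.74 for Dbp with Ciart. They are weaker for Per3 with Nr1d1 (0.36) and weakest for Nr1d1 with Tef (0.16). Bmal1 and Npas2 are negative with Dbp (-0.48 and -0.58).

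The other core genes were read in the same fits. Of 15 tested, 1 rose with each of Per3, Nr1d1 and Tef, and with Ciart 2 rose and 1 fell. Of all genes 10.4%, 7.32%, 0.0747% and 8.30% passed on these 4 references. Cry2 rose with Per3 (0.45 ± 0.10, adjusted p = 0.00827), Nr1d1 (0.31 ± 0.08, adjusted p = 0.0239), Ciart (0.36 ± 0.07, adjusted p = 0.00471) and Tef (0.76 ± 0.16, adjusted p = 0.047) as well as with Dbp. Npas2 fell with Ciart too, by 0.30 ± 0.10 (adjusted p = 0.0418). With Nr1d2 3 of the 15 rose, where 13.4% of all genes passed. Among these 3 was Hlf, the third PAR bZIP factor gene (0.46 ± 0.10, adjusted p = 0.000618). Rora, an activator at ROR elements, was another (0.42 ± 0.15, adjusted p = 0.047). Bhlhe40, an E-box repressor gene, rose with Ciart (0.66 ± 0.18, adjusted p = 0.0202). With Per1, Per2 and Clock as the reference 0 of 15 passed in limma, and 3, 3 and 6 had an unadjusted p under 0.05. Of all 18748 genes 3728, 3352 and 3612 had such an unadjusted p with these references.

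Some of these references also moved with general features of the libraries. The first principal component of the 49 libraries within series held 14.8% of the variance, and its within-series r was 0.45 with Ciart, 0.36 with Nr1d1, 0.34 with Cry1 and 0.10 with Dbp. With that component as a covariate, an alternative chosen after seeing the data, Ciart had a slope of 0.79 on Dbp (adjusted p = 3.3e-06), Nr1d1 0.65 (adjusted p = 0.000571), Per3 0.48 (adjusted p = 0.00392) and Tef 0.29 (adjusted p = 0.0192). The within-series r of log10 of the library total with the 10 genes lay between -0.30 (Per2) and 0.11 (Nr1d1). Ciart was lower where LOC120093067 and Zfp532 took more of the counts (r of -0.36), and the part of this in its slopes was not tested. With totals without dominant features its slope on Dbp was 0.82 (adjusted p = 3.74e-05). That rescaling does not hold the share of those features fixed, so it cannot decide the question.

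Per1 was the 1 gene of the 10 that passed the adjusted threshold between identifier series. Limma's F test over the 5 series called 1.71% of 18749 genes, and of the 10 clock genes Per1 alone passed (F = 18.5, adjusted p = 8.48e-07). Per1 was at 9.56 to 15.6 CPM in series B (median 11.5), 10.9 to 23.7 in C (median 14.6), 6.03 to 15.9 in D (median 12.9), 19.3 to 29.7 in E (median 21.7) and 17.96 to 33.9 in F (median 23.7). Levels in E and F were the high ones, and the groups overlapped: 6 of the 14 libraries of E and F were above all 35 of B, C and D, and 3 of the 35 were above the lowest of E and F.

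In order of mean level the series were B (12.1 ± 2.01 CPM, SD), D (12.7 ± 2.80), C (15.7 ± 3.55), E (22.4 ± 3.66) and F (23.7 ± 4.98). On the log2 scale E was above B by 0.84 ± 0.15 (SE, adjusted p = 0.000529; 0.416% of genes passed), above D by 0.80 ± 0.13 (adjusted p = 0.000111; 0.992%) and above C by 0.50 ± 0.13 (adjusted p = 0.0265; 1.94%). F was above B by 0.91 ± 0.15 (adjusted p = 0.000106; 0.533%), above D by 0.87 ± 0.13 (adjusted p = 1.84e-05; 0.731%) and above C by 0.57 ± 0.13 (adjusted p = 0.00824; 0.997%). Of the neighbours in that order E against C thus passed, while D against B, C against D and F against E did not in the same fit (C against D had an adjusted p of 0.669; unadjusted, D against B had 0.764 and F against E 0.653). Under the alternatives run within these libraries the F test for Per1 had an adjusted p of at most 0.000582, the value without series F.

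Dbp was at 35.3 to 63.4 CPM in series B (median 44.6), 31.5 to 54.2 in C (median 43.7), 37.2 to 93.7 in D (median 53.1), 35.3 to 90.7 in E (median 52.4) and 35.1 to 77.7 in F (median 47.3). Series D and E held its widest ranges, and all 5 series overlapped. Ciart was at 6.08 to 11.8 CPM in B (median 8.06), 4.96 to 12.1 in C (median 9.59), 6.09 to 20.9 in D (median 13.02), 7.05 to 25.2 in E (median 11.8) and 9.93 to 20.5 in F (median 11.7), again overlapping. Nr1d1 had medians of 11.3 in B, 10.7 in C, 12.8 in D, 13.6 in E and 13.1 in F, and Clock of 35.9, 35.9, 36.3, 37.4 and 33.9. Per2 had medians of 21.6 to 23.6 CPM and Cry1 of 13.9 to 15.3 over the 5 series.

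The 9 other clock genes did not pass between series, with adjusted p from 0.0805 for Ciart to 0.98 for Clock. Ciart had means of 3.22 in B and 3.31 in C and of 3.73 to 3.77 in D, E and F, and it passed with median-of-ratios scaling (adjusted p = 0.0396). Dbp had means of 5.43 to 5.83 (adjusted p = 0.278) and Nr1d1 of 3.54 to 3.93 (adjusted p = 0.31). Of the 15 other core genes Cry2 and Nfil3 passed, where 1.71% of all genes tested did. Both were highest in E and F. Cry2 was at 42.05 to 64.7 CPM in E and F against 22.9 to 48.05 in the rest. Nfil3, a D-box repressor gene, was at 13.5 to 31.8 against 3.45 to 21.6. Both ranges overlap. Of the 8 output genes Usp2, a deubiquitinase gene, and Coq10b passed.

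Other lists moved between series along with Per1, and their part in its difference was not tested. All 11 immediate early genes tested passed between series, where 1.71% of all genes tested did. Fos, among them, was at 37.5 to 227 CPM in E and F and 3.31 to 20.4 in B, C and D. Its groups thus did not overlap, and the share of all genes without overlap was not counted. The summed level of the 12 immediate early genes ranged from 50.6 to 806 CPM over the 49 libraries. Of 8 glucocorticoid targets 5 passed, and of 4 erythroid genes 4, with a summed level of 52.5 to 2620 CPM. One of 7 RMTg markers passed, Pnoc, the nociceptin precursor gene, and 0 of the markers of oligodendrocytes, astrocytes, microglia, endothelial cells, neurons, dopaminergic cells and serotonergic cells. What the series stand for and any condition of collection that goes with them cannot be told apart.

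**Figure D4:**
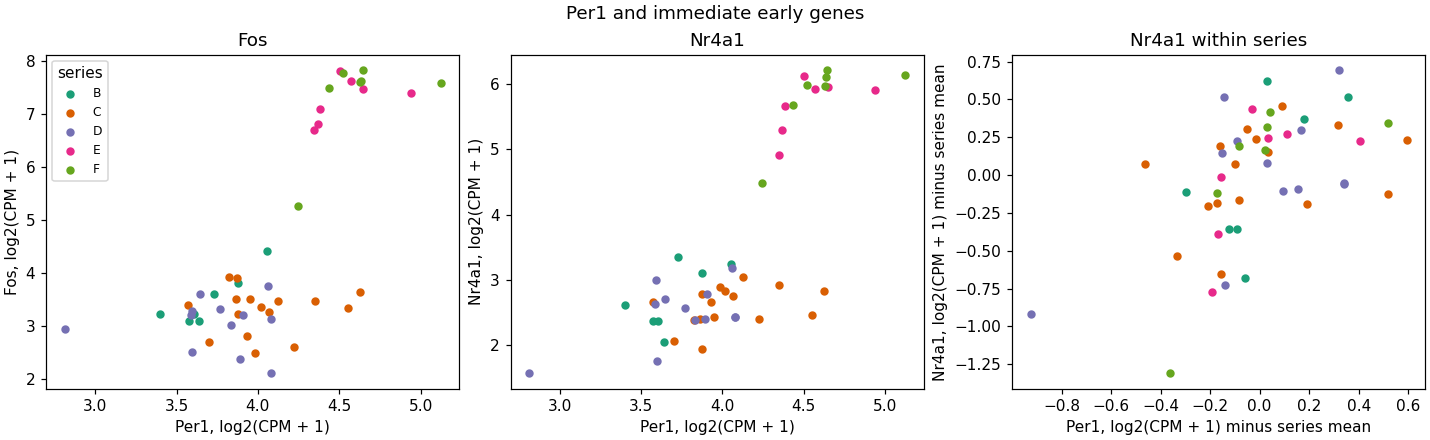
Fos and Nr4a1 (vertical axes) against Per1 (horizontal axes) as log2(CPM + 1) in 49 libraries coloured by series, and, on the right, Nr4a1 and Per1 with series means removed. Series E and F (14 libraries) lie apart in both genes, and within series Nr4a1 has an r of 0.54 with Per1.

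Within series, Per1 kept none of the clock genes as a companion at the threshold. On Per1, 1.21% of genes passed (1.08% rising, 0.133% falling), and 0 of the 9 other clock genes (3 at an unadjusted p under 0.05: Clock, Tef and Dbp). Of all 18748 genes 3728 had an unadjusted p under 0.05 on Per1. Dbp had a slope of 0.35 ± 0.17 (adjusted p = 0.251), Per3 0.22 ± 0.14 (adjusted p = 0.379), Per2 0.20 ± 0.16 (adjusted p = 0.499) and Nr1d1 -0.06 ± 0.18 (adjusted p = 0.876). Clock came nearest, at -0.34 ± 0.10 (adjusted p = 0.0532), negative in 5 of 5 series with a within-series r of -0.50. With Clock as the reference Per1 passed, falling by 0.73 ± 0.20 (adjusted p = 0.0391). On Per1 Clock also passed with median-of-ratios scaling (adjusted p = 0.0405), and it did not without any one of the series (adjusted p from 0.077 to 0.608).

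Of the immediate early genes 1 of 11 rose with Per1 within series, Nr4a1, an orphan nuclear receptor gene, by 0.83 ± 0.19 (adjusted p = 0.0351). Without series C it had 1.08 (adjusted p = 0.543), and it also missed the threshold without B (adjusted p = 0.0995) or E (adjusted p = 0.0839) and without the 2 libraries of most extreme Per1 level (0.79, adjusted p = 0.052). All 11 had slopes above 0 (0.15 to 0.83, median 0.46, against 0.04 for all genes): Junb had 0.61 ± 0.26 (adjusted p = 0.177), Dusp1 0.58 ± 0.21 (adjusted p = 0.117) and Fos 0.50 ± 0.26 (adjusted p = 0.279). Without series as a covariate the slope of Fos on Per1 was 3.25 (adjusted p = 1.08e-07) (both genes differ between series). Fos and Per1 had an r of 0.91 in series B, 0.08 in C, -0.04 in D, 0.53 in E and 0.57 in F. No pooled r is given, as the libraries fall into separate clusters.

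Of 8 glucocorticoid targets 0 passed on Per1, and 1 had an unadjusted p under 0.05, Nfkbia, the gene of an inhibitor of NF-kappaB (0.54 ± 0.18, adjusted p = 0.0984). Fkbp5, an FK506-binding co-chaperone gene, had 0.25 ± 0.21. Of the clock outputs Usp2 had 0.36 ± 0.12 (adjusted p = 0.0874). Among cell type markers, 1 of 4 neuron genes rose, Rbfox3, the gene of the NeuN antigen (0.58 ± 0.10, adjusted p = 0.00212), and 1 of 7 RMTg markers, Sox14, a transcription factor gene of inhibitory neurons (0.36 ± 0.10, adjusted p = 0.0493). The other neuron markers, Snap25, Syt1 and Tubb3, had slopes of -0.13, -0.05 and 0.16.

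The genes most like Per1 within series were Rbfox3 (r of 0.69), Snrnp70 (0.65), a spliceosomal gene, Eln (0.65), the elastin gene, Noxo1 (0.64), Klf9 (0.61), a Krüppel-like factor gene induced by glucocorticoids, Usf2 (0.60), an E-box factor gene, Dot1l (0.59), a histone H3 methyltransferase gene, and Ddo (0.59). Klf9 had a slope of 0.61 ± 0.12 (adjusted p = 0.0106) and ranged from 33.3 to 89.1 CPM. Those that fell most closely were Zfp560 (r of -0.59), Ccdc90b (-0.57), Plpp1 (-0.56), Syap1 (-0.56), Rbm48 (-0.54) and Ufsp2 (-0.52). In all 202 genes rose and 25 fell, and each of the 14 named had 1 sign in 5 of 5 series. Without series C 0 genes passed in limma (871 had an unadjusted p under 0.05) and without series D 1880 did. Leaving out library 48 of series C alone took the number from 227 to 69, so the length of this list depends on which series and libraries are included; the other libraries were not left out one by one.

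The 43 libraries left out held the clock genes at lower counts. In the 32 in which LOC120093067 and Zfp532 took over 10% of the counts, 7 of the 10 genes had over 3 counts in every library, and Dbp had a median of 56.5 counts against 976 in the libraries used. In the 11 in which Nif3l1 took over 20%, Dbp, Per1, Per2, Nr1d1, Cry1 and Ciart had a median of 0 counts. Within series, 31 of the 32 gave slopes on Dbp of 0.75 for Nr1d1 (adjusted p = 4.76e-05), 0.22 for Per3 (adjusted p = 0.0661), 0.09 for Tef (adjusted p = 0.424) and 0.07 for Ciart (adjusted p = 0.724), where 55.4% of all genes passed on Dbp. Median counts there were 24.7 for Nr1d1, 130 for Per3, 255 for Tef and 11 for Ciart.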

How the data were processed

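PolyA RNA of the RMTg was sequenced in libraries of outbred rats. The deposited table gives, for 38354 genes, log2 values of an estimated count plus 1, read from the values: 49.98% of values between 0 and 20 after back-transformation were whole, with a tolerance of 0.01. The submitters' processing notes name kallisto 0.48; annotation, build, strand and normalization are not given in the sources used here. Of the table's symbols 38278 matched RefSeq on GRCr8.

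Values were back-transformed (2 to the power of the value, minus 1), divided by the library total to CPM and taken as log2(CPM + 1). Genes with at least 1 on that scale in at least 20% of libraries were kept. Genes were fitted by limma 3.58.1 (R 4.3.3; mean trend), on series or on a reference gene with series as a covariate, with Benjamini-Hochberg adjustment over all genes tested and a threshold of 0.05. Within-series correlations used values minus the series mean. Permutation tests used numpy 2.4.6, with ranks from scipy 1.17.1. The procedure was tested on simulated data. No column lacked a sample.

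The 10 genes and the lists were chosen with earlier results of these data known. Genes outside the lists were named by rule: the 8 most positive and the 6 most negative within-series correlations with Dbp and with Per1 among genes that passed with 1 sign in every series, leaving out provisional symbols. Alternatives covered scaling, totals, filter, pseudocount, covariates, ranks and libraries left out. One gene of the core list is not reported here by name.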

Additional observations from a re-analysis of the deposited data

Results flagged for a closer look

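In series B the lowest Nr1d2 library stood apart from the other 6: it had 50.2 CPM where the others had 59.8 to 67.4 CPM, and on log2(CPM + 1) its gap to the nearest was 0.597 of the range of the series. In CPM that ratio was 0.562, which would not have marked it. It was 1 of 30 groups of a gene and a series tested for an outlying library, and chance marks about 1 group in 20.

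In the 32 libraries dominated by LOC120093067 and Zfp532, which no comparison of the 49 libraries uses, 7 of the 10 clock genes had over 3 counts in every library. The other 3 were Nr1d1, Ciart and Cry1, which did in 31, 30 and 31 libraries.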

How the results depend on the processing

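No paired analysis was possible because all samples belong to 1 group. The count of genes passing on Dbp (89) was 37 with median-of-ratios scaling, 25 without a filter, 180 with a stricter filter, 41 with the library total and 173 with Xist and Ddx3y as covariates, 14 without series as a covariate, 137 without the 2 libraries farthest from the median, 152 without library 48, the one of the 49 whose label notes a corrected identifier, 256 on ranks, and 10, 9, 3, 337 and 18 without series B, C, D, E and F. The count on Per1 (227) was 433 with totals without dominant features, 43 without a filter, 965 with Fos as a covariate, 766 without the 2 farthest libraries, 69 without library 48, 634 on ranks, and 7, 0, 1880, 12 and 362 without series B, C, D, E and F. The count of pairs passing in both directions (7) was 3 without series C, 1 without D, 3 without the 2 farthest libraries and 2 on ranks. The 320 genes differing between series became 105 with Xist and Ddx3y as covariates, 579 without series C, 116 without E and 107 without F. The cause was not tested. Fits that leave libraries out hold fewer of them, and their counts went both up and down.

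With the first principal component as a covariate, chosen after seeing the data, the counts were 529 on Dbp, 737 on Per1 and 1244 between series. In the libraries dominated by LOC120093067 and Zfp532, likewise chosen, they were 11138 on Dbp, 5123 on Per1 and 14 pairs, and the slopes on Per1 of Nr1d2, Clock and Cry1 turned to 0.95, 0.82 and 0.61 and that of Bmal1 on Dbp to 0.44. Over all libraries of series with at least 6, an alternative planned at the start, the counts were 18378 on Dbp, 18633 on Per1, 45 pairs and 14000 between series, and the slopes on Per1 of Nr1d1, Nr1d2, Clock and Cry1 turned to 0.59, 1.16, 1.10 and 0.78 and those on Dbp of Clock, Cry1, Bmal1 and Npas2 to 0.72, 0.69, 0.72 and 0.60. Within the 49 libraries no slope that passed changed its sign; over all settings 14 values of 29 slopes changed sign where neither passed. The slope of Ciart on Dbp passed in every alternative run within the 49 libraries.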
